A study of Mus musculus with 6 samples.

Results

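Pax5 and Zcchc7 are neighbouring genes on mouse chromosome 4 that are transcribed away from each other, and 45 of the 69171 open chromatin regions in the bone marrow cells studied here lay nearest to one of them. The regions were made by merging the ATAC-seq peaks of 6 libraries wherever peaks overlapped by at least 1 bp. A region was taken as a member when its nearest protein-coding gene, within 100 kb, was Pax5 (20 regions) or Zcchc7 (25 regions). The members were thus chosen by the peak positions of all 6 libraries, the locus was picked with results of these data known, and the values below describe it without a test. ATAC-seq marks DNA that a transposase can reach, and a peak is a stretch where insertions pile up.

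Cells came from the bone marrow of naive Adig mice on the Balb/c strain. In the Adig transgene, regulatory sequence of Aire, the autoimmune regulator, drives a GFP fusion of the islet protein Igrp, and all 3 sorted populations carried it. The plasma cell gate was AireGFP-B220-CD138+TACI+ and the immature B cell gate AireGFP-B220+CD138-TACI-IgM+. The pc-BMACs, gated as AireGFP+B220-CD138+TACI+, differ from plasma cells in the sort only by the reporter. Each population had 2 libraries from 2000 to 15000 sorted cells each, and the labels give neither the age of the mice nor whether the 2 libraries of a gate were made from different mice, so the spread between them may be technical.

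Pax5 encodes a paired-box transcription factor that commits lymphoid progenitors to the B lineage. It activates genes of B cell identity such as Cd79a and represses genes of other lineages and of plasma cells. When B cells become plasma cells, the repressor encoded by Prdm1 shuts Pax5 down. Zcchc7 encodes a zinc-knuckle protein that takes part in nuclear RNA surveillance. Its surroundings are of interest because distant enhancers of PAX5 have been placed near ZCCHC7 in human B cells. The peak lists show which stretches were called open and not which gene a stretch acts on, so the name enhancer was not given to any region here.

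Pax5 spans chromosome 4, 44524748 to 44710694 (mm10, minus strand, 186 kb), and Zcchc7 spans 44756558 to 44932215 (plus strand, 176 kb), with 45.9 kb between them. Both start sites face this gap. Upstream of each start the 250 bases below are shown because calls at them differed: all 6 called the Zcchc7 promoter and 4 called that of Pax5. Sequences are from RefSeq (GRCm38.p6, the assembly that mm10 names), 5′ to 3′ on the strand of the gene, ending at the base before the start site. The start sites used were 44710694 for Pax5 and 44756559 for Zcchc7, so the Zcchc7 stretch ends on the first base of the interval given above. Capitals mark matches to the motifs searched.
Pax5, chr4:44710695-44710944, minus strand: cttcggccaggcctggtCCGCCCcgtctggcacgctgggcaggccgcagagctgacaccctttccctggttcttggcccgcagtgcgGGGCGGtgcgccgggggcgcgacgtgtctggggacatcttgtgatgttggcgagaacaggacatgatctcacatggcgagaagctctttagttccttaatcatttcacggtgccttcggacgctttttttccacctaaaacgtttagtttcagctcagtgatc
Zcchc7, chr4:44756309-44756558, plus strand: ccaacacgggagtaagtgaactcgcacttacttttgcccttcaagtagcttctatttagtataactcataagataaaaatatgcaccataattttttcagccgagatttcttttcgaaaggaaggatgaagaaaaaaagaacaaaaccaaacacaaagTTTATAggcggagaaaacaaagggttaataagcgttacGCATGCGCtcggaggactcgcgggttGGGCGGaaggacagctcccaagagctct

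The search covered 7 motifs on both strands: the ETS factor motif CCGGAAGT, the NRF1 motif GCATGCGC, the RUNX core TGTGGT, an E-box with the letters CAGCTG, the TATA box as TATAAA, the CCAAT box by its letters, and the GC box as GGGCGG. The Pax5 stretch held 2 GC boxes and no match to the others. The Zcchc7 stretch held 1 GC box, 1 NRF1 motif and 1 TATA box. None of these matches overlapped another. Of 32851 RefSeq promoters cut to the same 250 bases, 32.7% held a GC box, 2.26% the NRF1 motif and 12.4% the TATA letters. The Pax5 stretch was 58.8% G or C with 19 CG dinucleotides and the Zcchc7 stretch 42.0% with 12, against medians of 52.4% and 6 over all promoters.

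Immature B cells had called peaks along both genes, plasma cells at fewer places, and pc-BMACs at fewest, above all within Zcchc7. Of the 45 regions, immature B cells 1 and 2 called 37 and 32, plasma cells 1 and 2 called 17 and 15, and pc-BMACs 1 and 2 called 9 and 7. The libraries of the 3 populations did not overlap in this count. Per population this was 34.5 ± 3.54 regions in immature B cells, 16.0 ± 1.41 in plasma cells and 8.0 ± 1.41 in pc-BMACs (SD, n = 2 each). The order was not that of the genome as a whole, where pc-BMACs and plasma cells overlapped: the libraries called 74.1% and 64.8% of all 69171 regions in immature B cells, 51.8% and 50.5% in plasma cells, and 54.7% and 47.4% in pc-BMACs. At the locus the same shares were 82.2% and 71.1%, 37.8% and 33.3%, and 20.0% and 15.6%.

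**Figure D1:**
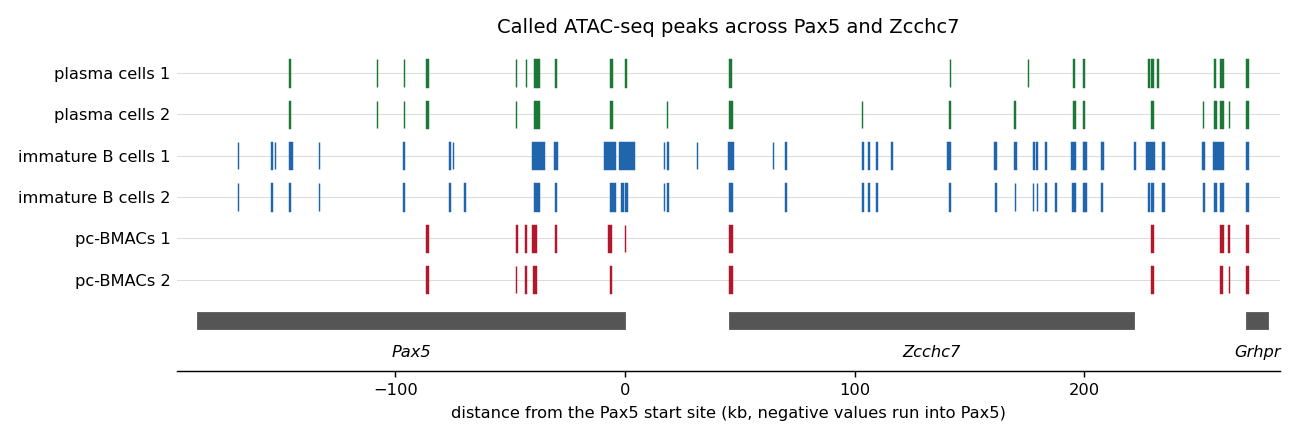
Called peaks (coloured bars) of the 6 libraries along Pax5, Zcchc7 and the start of Grhpr, by distance from the Pax5 start site in kb, with genes as grey bars and very narrow peaks drawn at a minimum line width. Peaks of immature B cells are spread over both genes, while the pc-BMAC rows are empty across Zcchc7 after the peak at its start.

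The sequence inside peaks gave the same order. Peaks at the locus covered 38.2 and 20.1 kb in immature B cells 1 and 2, 8.97 and 8.26 kb in plasma cells, and 7.34 and 5.37 kb in pc-BMACs. Immature B cells 1 had more peak sequence than any other library here and in the genome as a whole. Set against all peak sequence of the library, the locus took 1.04 and 0.771 kb per Mb in immature B cells, 0.409 and 0.383 in plasma cells, and 0.256 and 0.230 in pc-BMACs, so the populations stayed apart. The lists give no read counts, so the absence of a call does not show closed chromatin, and fewer cells with an open region cannot be told apart from less opening per cell.

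**Figure D2:**
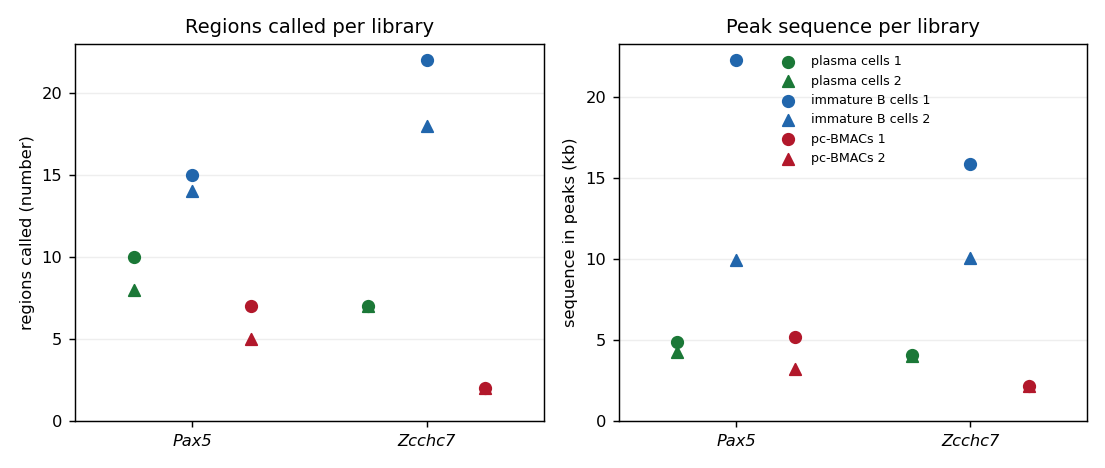
Left, number of regions called per library among the 20 regions of Pax5 and the 25 of Zcchc7; right, kb of sequence in peaks, with circles for replicate 1 and triangles for replicate 2 and both axes from 0. The gap between immature B cells and pc-BMACs is wider at Zcchc7 (22 and 18 regions against 2 and 2) than at Pax5 (15 and 14 against 7 and 5).

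At Pax5 itself, the 20 regions comprised 18 that overlapped the gene and 2 in the gap ahead of its start. Immature B cells called 15 and 14 of them, plasma cells 10 and 8, and pc-BMACs 7 and 5. The region over the start site (chromosome 4, 44710558 to 44714591) was called in both libraries of immature B cells and in 1 library each of the other populations. In the 300 bp window from 250 bases before the start to 50 after it, immature B cells 1 and 2 had 300 and 251 bp in peaks. Plasma cells 1 had 228 bp there and plasma cells 2 had 0, while pc-BMACs 1 had 150 bp and pc-BMACs 2 had 0. Within plasma cells and within pc-BMACs the replicates thus disagreed on this window. Only the 2 immature B cell libraries had the start site itself (44710694) inside a peak. That contrast is narrow, as the peak of immature B cells 2 began at this very base and that of plasma cells 1 at 44710717. Just inside the gene, a region of 2493 bp (44707957 to 44710449) was called in both libraries of immature B cells and in no other.

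Farther into the gene, beginning 4.11 and 35.1 kb from the start, a pair of wide regions was called in all 6 libraries. The nearer one (44701444 to 44706580) overlaps the long noncoding RNA gene 5730488B01Rik. Every library had a peak over 524 bp of it (44704242 to 44704765), but the peaks were 5137 and 2366 bp wide in immature B cells, 646 and 823 bp in plasma cells, and 1384 and 601 bp in pc-BMACs. The farther one (44670328 to 44675613, 5286 bp) was a single peak in immature B cells 1. Here 839 bp (44671016 to 44671854) lay in peaks of all 6 libraries. A second stretch of the same region, 618 bp at 44672538 to 44673155, lay in peaks of both libraries of plasma cells and of immature B cells and in no pc-BMAC peak. Merging thus hid a place within a shared region where the pc-BMAC lists differed. Between these wide regions, one at 44679957 to 44681076, which ends just before the long noncoding RNA gene Gm12462, was called in both libraries of immature B cells, plasma cells 1 and pc-BMACs 1.

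**Figure D3:**
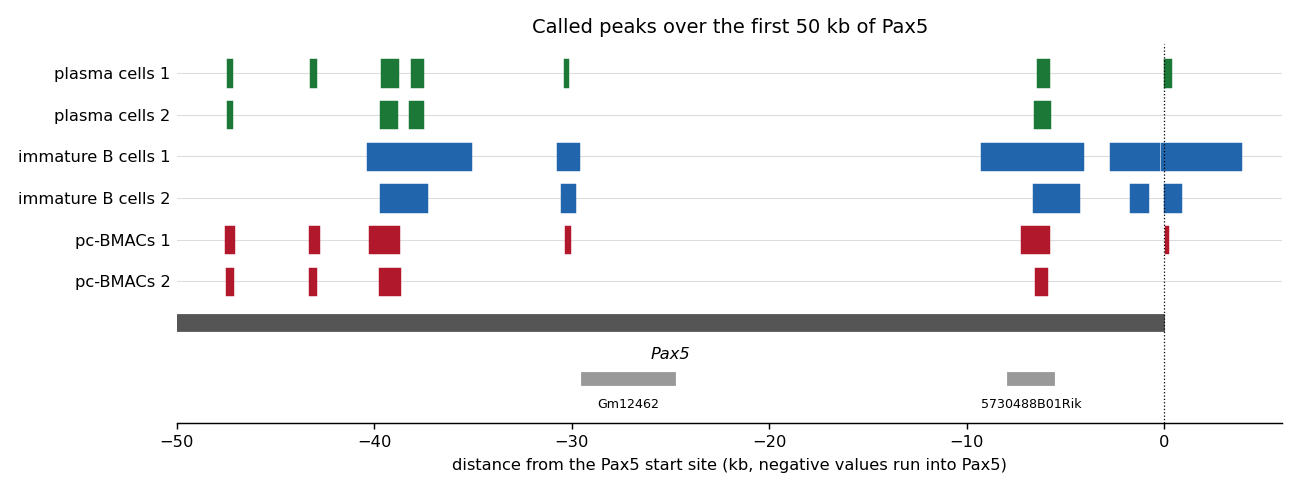
Called peaks over the first 50 kb of Pax5, by distance from its start site in kb (dotted line), with Pax5 and 2 long noncoding RNA genes as grey bars. Near 38.8 kb into the gene plasma cells have a pair of peaks of which pc-BMACs have 1, and near 47.1 and 42.8 kb plasma cells 1 and both pc-BMAC libraries have peaks that immature B cells lack.

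Every group-only region of the locus that immature B cells lacked lay in Pax5. A region of 942 bp, 85.5 kb into the gene (44624265 to 44625206), was called in both libraries of plasma cells and of pc-BMACs and in neither immature B cell library. Its peaks were 942, 889, 879 and 879 bp wide, in the order plasma cells 1 and 2 and pc-BMACs 1 and 2, and 872 bp were common to all of them. Another of 491 bp, 47.1 kb into the gene (44663117 to 44663607), had the same calls, with peaks of 268 and 236 bp in plasma cells and 491 and 332 bp in pc-BMACs. One more (44667395 to 44667871, 477 bp) was called in both pc-BMAC libraries and plasma cells 1. Over the whole series, 2529 of 69171 regions (3.66%) were called in both libraries of plasma cells and of pc-BMACs alone, and 2 of the 20 Pax5 regions were, so this number is too small to set beside that share. One narrow region, at 44602584 to 44602820, had calls in both plasma cell libraries alone. The part of Pax5 farthest from its start had no pc-BMAC peak: the first lay 99.6 kb from that end in both pc-BMAC libraries, against 39.9 kb in both plasma cell libraries and 17.4 and 17.5 kb in immature B cells. In that stretch the regions at 44564581 to 44565868 and 44614218 to 44614674 were called in both libraries of plasma cells and of immature B cells.

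Zcchc7 had a start region that every library called and, beyond it, calls mostly from immature B cells, some from plasma cells and none from pc-BMACs inside the gene. The start region (44755814 to 44757563, 1750 bp) overlaps the promoter printed above, and all 300 bp of the window around the start lay in peaks of all 6 libraries. Of the 20 regions that overlap the gene, immature B cells 1 and 2 called 18 and 16, plasma cells 5 and 6, and each pc-BMAC library called 1, the start region. From the end of that peak to the far end of the gene, 175 kb (99.7% and 99.6% of Zcchc7) held no peak of pc-BMACs 1 or 2. The longest stretch of the gene without a peak was 95.0 and 56.7 kb in plasma cells 1 and 2 and 32.8 kb in both libraries of immature B cells.

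Within Zcchc7, 3 regions were called in both libraries of plasma cells and of immature B cells and in no pc-BMAC library: 44851768 to 44852369, 44905107 to 44906823 and 44910100 to 44910563. The widest of them, 1717 bp in the far part of the gene, had peaks of 757 and 1092 bp in plasma cells and 1717 and 1447 bp in immature B cells. Another 10 regions assigned to Zcchc7 were called in both libraries of immature B cells alone, of which the 858 bp region at 44871598 to 44872455 was the widest inside the gene. Beyond the gene, toward Grhpr, a region of 3388 bp (44937781 to 44941168) was called in all 6 libraries, and 779 bp of it were common to all. Its other part, 735 bp at 44938312 to 44939046, lay in peaks of both libraries of immature B cells, and plasma cells 1 alone of the remaining libraries had a peak there. A region of 917 bp (44944475 to 44945391), inside the long noncoding RNA gene Gm12678, was called in the immature B cell libraries alone.

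Of the 45 regions, 36 (80.0%) had no pc-BMAC call, against 42.2% of all regions. By gene this was 13 of 20 at Pax5 and 23 of 25 at Zcchc7. Regions called in both libraries of immature B cells alone numbered 16 (35.6%, against 14.3% of all regions), and those called in all 6 libraries numbered 4 (8.89%, against 29.6%). A further 9 were called in 1 immature B cell library alone (20.0%, against 13.2%), and 2 assigned to Zcchc7 in 1 plasma cell library alone, plasma cells 1 (4.44%, against 3.22%). No region of the locus was called in pc-BMACs alone, a pattern that 10.2% of all regions had. The 16 regions of immature B cells alone had a median width of 438 bp (297 to 2493 bp), and the 4 called in all libraries one of 4262.5 bp (1750 to 5286 bp). Over the whole series the medians of these classes were 321 and 1152 bp.

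For each pair of populations, a region was counted as group-only when both libraries of one had it and neither library of the other. With 2 libraries against 2 the smallest two-sided exact p is 0.333, so no p over libraries is given, and the share among all regions of the comparison serves as the background. Between immature B cells and pc-BMACs, 24 of 42 regions (57.1%) were called in immature B cells only, against 24.1% of all regions, and 3 in pc-BMACs only (7.14%, against 10.3%). Zcchc7 contributed 15 and 0 of these, and Pax5 9 and 3. Between immature B cells and plasma cells, 16 of 45 (35.6%) were called in immature B cells only, against 19.0%, and 3 in plasma cells only (6.67%, against 6.35%). Between plasma cells and pc-BMACs, 6 of 20 (30.0%) were called in plasma cells only, against 9.46%, and 0 in pc-BMACs only, against 8.42%. These 6 were 3 regions each of Pax5 and Zcchc7, and 5 of them were also called in both libraries of immature B cells. The comparisons share libraries and are not independent of each other.

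**Figure D4:**
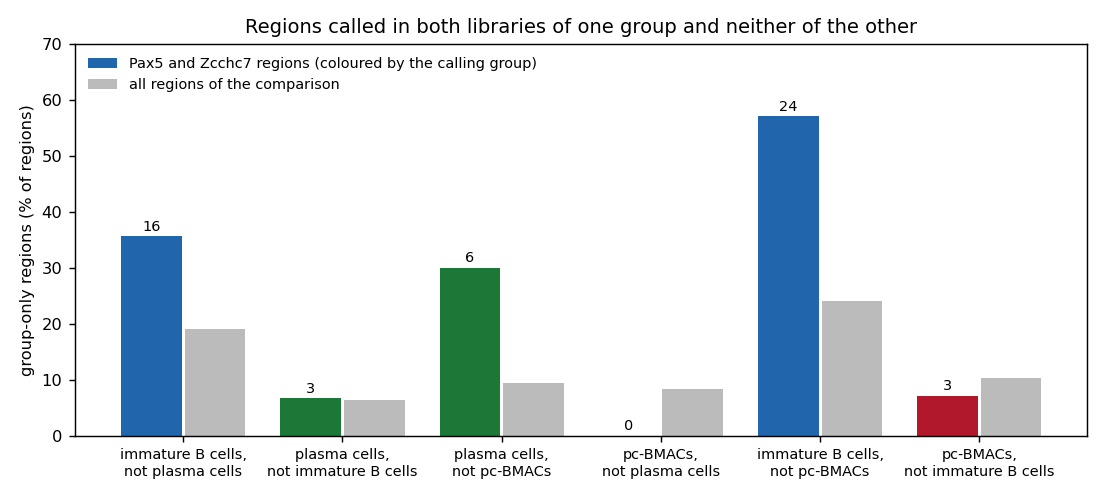
Share of regions (%, axis from 0) called in both libraries of one population and neither of the other, for the Pax5 and Zcchc7 regions (coloured bars, with the number of regions above) and for all regions of the comparison (grey bars). The locus lies above the grey bar for immature B cells against both other populations and for plasma cells against pc-BMACs, and near or below it in the reverse directions.

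Marker genes were counted to check the sorts. Of 34 regions at 8 B cell marker genes, plasma cells called 19 and 18 (55.9% and 52.9%), immature B cells 30 and 25 (88.2% and 73.5%), and pc-BMACs 20 and 13 (58.8% and 38.2%), beside the shares over all regions given above. Between immature B cells and pc-BMACs, 2 of these 8 genes had more regions of immature B cells only, 1 (Vpreb3) had fewer and 5 were equal. One of the former, Fcer2a, the low-affinity IgE receptor of mature B cells, had 5 and 4 regions in immature B cells, 0 and 0 in plasma cells and 1 and 0 in pc-BMACs. Of 83 regions at 8 plasma cell marker genes, plasma cells called 55 and 50 (66.3% and 60.2%), pc-BMACs 59 and 56 (71.1% and 67.5%), and immature B cells 50 and 44 (60.2% and 53.0%). The members of this set were split: 4 genes had more regions of pc-BMACs only, 3 had more of immature B cells only and 1 was equal. Ell2, an elongation factor gene, held 19 of the 83 regions. It had 10 and 7 called regions in plasma cells, 16 and 14 in pc-BMACs and 5 and 4 in immature B cells. Of the set's 19 regions of pc-BMACs only, 7 were at Ell2, so the higher pc-BMAC share leaned on this gene. Sdc1, which encodes the sort marker CD138, had 9 and 9 called regions in plasma cells, 6 and 7 in pc-BMACs and 11 and 8 in immature B cells. The 1 region of Aire was called in all 6 libraries. All 3 populations carried the transgene with regulatory sequence of Aire. Where its sequence is the same as that of Aire, the peak lists cannot tell the transgene from the gene itself. Erythroid markers stood apart in plasma cells 1, with 5 of 5 regions against 1 in each other library. Without plasma cells 1, 9 regions of the locus were called in plasma cells and not pc-BMACs (against 15.8% of all regions of that comparison), and 18 in immature B cells and not plasma cells (against 23.2%). T cell markers had 9 regions, of which plasma cells called 5 and 5, immature B cells 5 and 2, and pc-BMACs 6 and 4. The 11 myeloid marker regions gave 6 and 7, 4 and 5, and 5 and 6 in the same order. The markers Cd8a and Elane had no region in any library. The part of such cells in the Pax5 and Zcchc7 calls was not tested.

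Each comparison has 1 pair of libraries whose descriptions share an R number, whose meaning the labels do not state. In these pairs the locus kept its direction: 31 regions in immature B cells 1 and not pc-BMACs 1 against 3 the other way, 20 in immature B cells 2 and not plasma cells 2 against 3, and 10 in plasma cells 1 and not pc-BMACs 2 against 0. The shares were 77.5%, 57.1% and 58.8% of the regions of the pair, against 39.2%, 31.8% and 22.6% over all regions.

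The genes on either side had few regions. Melk, a kinase gene on the far side of Pax5, had 4 regions, of which each library called 1 or 2, and 160 kb between Melk and Pax5 held a single narrow region (44425414 to 44425641), called in immature B cells 2. Grhpr, a metabolic enzyme gene beyond Zcchc7, had 4 regions, of which pc-BMACs called 3 and 3, immature B cells 3 and 3, and plasma cells 2 and 4. The nearest-gene rule, not the 100 kb limit, set the edge of the locus on this side. Just inside it, the 917 bp region named above lay 12260 bp from Zcchc7. Just outside, a region of 752 bp (44962038 to 44962789) lay nearer to Grhpr and was called in both libraries of immature B cells and plasma cells 2. Next to it, one of 4371 bp (44966810 to 44971180) was called in all 6 libraries, and one of 435 bp (44973442 to 44973876) in both pc-BMAC libraries and plasma cells 2.

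Regions called in both libraries of immature B cells and neither pc-BMAC library were counted for each of the 15196 genes with a region. Zcchc7 had 15 and was itself 1 of the 13 genes with as many or more. Pax5 had 9, and the 113 genes with as many or more include Pax5 and Zcchc7. Genes with more regions can have more of this kind, and the median over the 1504 genes with at least 10 regions was 3. Among the genes with at least 10 regions, the 5 whose shares of called regions over the 6 libraries lay nearest to those of Pax5 were Ralgps1, Carmil1, Rapgef5, Trappc9 and Dhx40, at Euclidean distances of 0.106 to 0.128 (shares taken from 0 to 1). Zcchc7, which was left out of that search, lay at 0.426. The 5 genes were chosen as the nearest, so they do not show whether this distance is large among genes. The pc-BMAC share of Zcchc7 was 8.0% in both libraries against 35.0% and 25.0% at Pax5. Plasma cells called 7 and 7 of its 25 regions against 10 and 8 of 20 at Pax5.

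**Figure D5:**
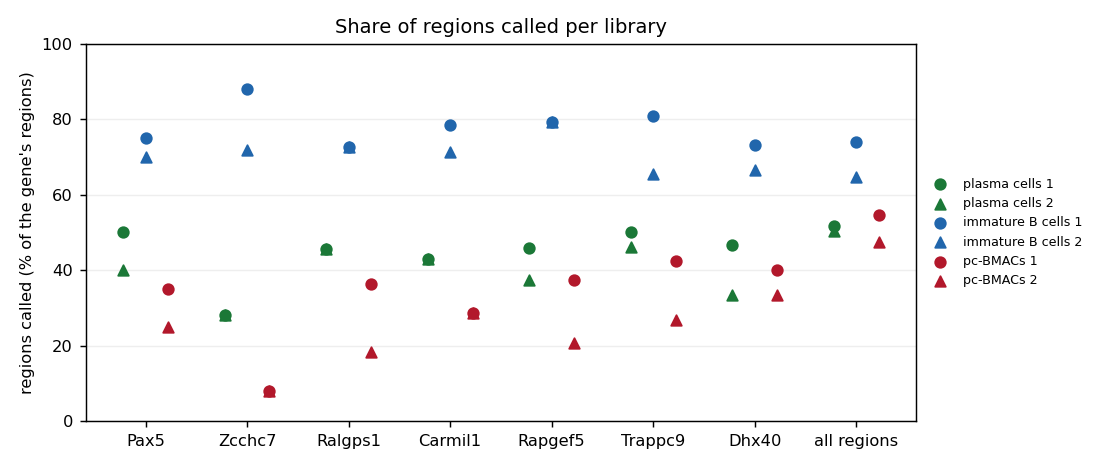
Share of each gene's regions called per library (%, axis from 0 to 100) for Pax5, Zcchc7, the 5 genes with shares nearest to Pax5 and all regions, with circles for replicate 1 and triangles for replicate 2. At Zcchc7 both pc-BMAC libraries are at 8.0%, while over all regions they are at 54.7% and 47.4%.

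Genes listed as Pax5-activated had a share of regions of immature B cells only near that of the genome. The list holds genes of the B cell programme that Pax5 acts in and was written from textbook knowledge, not from measured targets. All 24 genes of that list had regions, 350 in all, and 87 of the 329 in the comparison of immature B cells and pc-BMACs (26.4%) had that pattern, against 24.1% of all regions. In pc-BMACs only were 22 (6.69%, against 10.3%). Per gene, 14 had more regions of immature B cells only, 1 had fewer and 9 were equal, with a median difference of 1 region. Over all 15196 genes the numbers were 5549, 2144 and 7503, with a median of 0. The 24 listed genes held 350 regions, while the 15196 genes held 65361. Genes with few regions are more often equal, and the splits were not matched for regions per gene, so they do not show an excess for the list. Bach2, a repressor that holds off plasma cell differentiation, had 16 regions of immature B cells only and 2 of pc-BMACs only, of 60 in all. Ebf1, an early B cell factor that acts with Pax5, had 14 and 3 of 46. Bcl11a, a zinc finger factor of lymphoid development, had 13 and 1 of 30, and Ikzf1, which encodes Ikaros, 7 and 3 of 32. These genes were named for their counts, which can rise with the number of regions a gene has.

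The 17 genes listed as Pax5-repressed, also from textbook knowledge, had 165 regions, and 157 entered the comparison. Of these, 40 (25.5%, against 24.1%) were called in immature B cells only and 15 (9.55%, against 10.3%) in pc-BMACs only, again close to the background. Per gene, 14 had more regions of immature B cells only, 2 had fewer and 1 was equal, a split that was likewise not matched for regions per gene. Prdm1, the plasma cell repressor of Pax5, had 4 regions of pc-BMACs only and 6 of immature B cells only, of 24 in all. Jchain, which encodes the joining chain of secreted antibody, had 2 and 0, and its 3 regions were called in both libraries of plasma cells and of pc-BMACs, against 1 and 0 in immature B cells. Cd28, a costimulatory receptor found on plasma cells, had 2 and 3 of 14, and Cd47, a surface ligand that restrains phagocytes, 2 and 3 of 20.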

How the data were processed

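The authors deposited 1 peak list per library in mm10, and per the submitters' processing notes Bowtie2 2.3.3, HOMER 4.10 and bedtools were used, with roles and settings not given in the sources used here. Column 5, the score, as deposited held 1000 in every row, so it ranked nothing. The lists had 34070 to 51643 peaks of at least 150 bp, with no overlaps within a list and no read counts, so depth is unknown and no interval that needs it was computed. Peaks were merged and assigned in Python 3.11.15 with numpy 2.4.6. Regions were assigned to the nearest RefSeq protein-coding interval (GRCm38.p6). The 2101 regions equally near several genes, 0 of them at the locus, went to the gene with the largest overlap, then the shorter gene. The gene table has no exons. 1 gene is not reported here by name. The steps were tested on simulated data.

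Members, lists and markers were chosen with earlier results of these data known. The text names Pax5, Zcchc7, their outer neighbours, the 5 genes most like Pax5 and up to 4 genes per list, those with most regions of immature B cells only or, for repressed genes, of pc-BMACs only. Marker genes were named by list, and Fcer2a, Vpreb3, Ell2, Sdc1 and several regions were singled out after their calls were seen. Motifs were chosen after the promoters were seen. Alternatives changed the overlap that counts as a call, the list length, merging, assignment and the libraries used.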

Additional observations from a re-analysis of the deposited data

How the results depend on the processing

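The direction of each comparison at the locus was the same under every alternative run. For plasma cells against pc-BMACs it rested on few regions: 2 against 0 when peaks had to cover 50% of a region, and 1 against 0 with the widest 17035 peaks. Requiring peaks to cover at least 50% of a region, whose width is often set by immature B cells 1, lowered the regions called to 8 and 6 in plasma cells and 4 and 4 in pc-BMACs, and those of plasma cells not pc-BMACs to 2 (7.20% over all regions). With the widest 34070 peaks of each library, regions of immature B cells not plasma cells fell to 10, of 36 regions left, and their share over all regions to 10.2%. With the widest 17035, 13 regions were left. Immature B cells then called 12 and 11, plasma cells 6 and 6, and pc-BMACs 5 and 5. Group-only regions were then 7 for immature B cells not pc-BMACs and 6 for immature B cells not plasma cells, with shares over all regions of 11.8% and 8.06%. There was 1 each for pc-BMACs not immature B cells, plasma cells not immature B cells and plasma cells not pc-BMACs (12.2%, 8.45% and 7.16% over all regions). In the pair of libraries with a shared R number, an alternative chosen after seeing the data, the last count was 10 (22.6%). Leaving out 1 library at a time gave 3 to 6 regions of plasma cells not immature B cells (6 without plasma cells 2, 11.0% over all regions) and 0 to 1 of pc-BMACs not plasma cells (1 without plasma cells 1, 12.5%). Other counts stayed within 1.5 times their value, also with peaks within 200 bp merged or with regions limited to the genes and the gap between them. No paired analysis was possible because the results come from no test that could hold a block. Libraries that share an R number were compared by their counts alone. Without read counts, how far calls depend on depth cannot be known.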
